A study of Mus musculus with 2 samples.

Results

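The genes described here are the colony-stimulating factors and their receptors, 8 of the 35208 gene rows of a single-cell cDNA matrix from inflamed mouse ear skin. They were chosen by name: 4 ligands (Csf1, Csf2, Csf3 and Il34) and 4 receptor chains (Csf1r, Csf2ra, Csf2rb and Csf3r). All 8 had reads in the cells kept, as had 34392 of all rows. The cells came from ear skin of male BALB/c mice aged 7 to 12 weeks, either wild-type (WT) or lacking the chemokine receptor CCR2 (Ccr2-/-), which classical monocytes use to leave the bone marrow. All mice had been sensitized with 300 µg of a TNP-specific IgE and, on the next day, challenged with 10 µg of TNP-conjugated ovalbumin in the ear skin, which elicits IgE-dependent chronic allergic inflammation (IgE-CAI), and skin was taken 3 or 5 days later. Each genotype at each day was 1 hashtag-labelled pool in 1 mixed run of 10000 loaded cells, the number of mice in a pool was not stated, and no unchallenged skin was analysed here. The Ccr2 deletion is in the whole animal, so a difference between pools can come from any cell that carries it.

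Colony-stimulating factors are secreted proteins that keep myeloid cells alive and drive their growth and maturation. M-CSF (Csf1) and IL-34 bind the same receptor tyrosine kinase, CSF1R, on which most tissue macrophages and skin Langerhans cells depend. GM-CSF (Csf2) binds a receptor made of a specific alpha chain (Csf2ra) and the beta common chain (Csf2rb), which IL-3 and IL-5 receptors also use, and G-CSF (Csf3) binds CSF3R, the receptor that governs neutrophil output.

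After filtering, 7118 of 8953 barcodes were kept, 1543 and 1037 from WT skin at days 3 and 5 and 2191 and 2347 from Ccr2-/- skin, with 68064673 to 162572556 reads in a pool. Cells were given to a type by the markers of 16 cell types, none of which is a gene described here, and 5522 cells (77.6%) received one; the 14 types with at least 50 cells are reported, each written with "-like" since no surface protein was measured. The pools differed in makeup: neutrophil-like cells numbered 46, 6, 329 and 676 and monocyte-macrophage-like (Mo-Mac-like) cells 383, 409, 103 and 85. Wherever 4 values follow each other they stand for the 2 WT pools (days 3 and 5) and then the 2 Ccr2-/- pools (days 3 and 5). Ccr2 itself was 919, 686, 72.7 and 96.7 reads per 1000000 reads of the same cells (CPM) in Mo-Mac-like cells, lower in both Ccr2-/- pools as the labels have it, though not 0. Eosinophil-like cells lay in no cluster of that name and only 52.9% of pericyte-like or smooth muscle-like cells lay in one, so their values are weaker. The counts are reads and not molecules, so the 95% intervals given here cover counting error only. Levels are not compared between genes, since they carry no scale per length.

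The promoters of Csf1, Csf2ra and Csf3r are shown because these genes led in neutrophil-like cells in the data that follow, and they are the genes of that kind for which a window was at hand. The windows run from 250 bases before to 50 bases after the start in RefSeq (GRCm38.p6), 5′ to 3′ on the strand of the gene. Capitals mark the motifs found among 8 searched on both strands: PU.1 core GAGGAA, C/EBP TTNNGNAA, AP-1 TGANTCA, CRE TGACGTCA, EGR GCGNGGGCG, GC box GGGCGG, STAT TTCNNNGAA and the TATA box TATAAA. Csf1 lies on the minus strand at chr3:107760420-107760719, Csf2ra on the minus strand at chr19:61228369-61228668 and Csf3r on the plus strand at chr4:126024409-126024708.
Csf1: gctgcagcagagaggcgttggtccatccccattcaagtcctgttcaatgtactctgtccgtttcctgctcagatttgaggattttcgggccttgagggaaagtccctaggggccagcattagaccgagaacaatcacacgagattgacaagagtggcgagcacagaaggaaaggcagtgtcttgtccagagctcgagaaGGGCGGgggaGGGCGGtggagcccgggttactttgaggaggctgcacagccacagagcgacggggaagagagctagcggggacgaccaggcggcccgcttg
Csf2ra: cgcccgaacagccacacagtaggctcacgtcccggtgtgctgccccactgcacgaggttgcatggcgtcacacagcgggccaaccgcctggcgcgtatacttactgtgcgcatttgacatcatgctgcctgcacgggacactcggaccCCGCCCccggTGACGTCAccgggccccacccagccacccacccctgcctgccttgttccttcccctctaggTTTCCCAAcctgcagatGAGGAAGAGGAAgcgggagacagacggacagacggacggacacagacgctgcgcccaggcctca
Csf3r: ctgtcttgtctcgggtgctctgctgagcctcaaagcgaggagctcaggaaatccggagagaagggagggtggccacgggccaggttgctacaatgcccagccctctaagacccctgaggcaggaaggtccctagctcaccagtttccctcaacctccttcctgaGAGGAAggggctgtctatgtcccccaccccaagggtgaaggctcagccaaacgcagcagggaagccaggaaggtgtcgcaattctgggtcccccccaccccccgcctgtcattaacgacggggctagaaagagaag
Csf1 held 2 GC boxes, 51 and 41 bases before the start, a motif found in 35.7% of 32851 promoter windows. Csf2ra held 2 adjoining copies of the PU.1 core, 14 and 8 bases before the start, with a C/EBP motif at 31, a CRE at 92 and a GC box at 102 bases before it. The Csf3r window held 1 PU.1 core, 86 bases before the RefSeq start. The RefSeq starts of Csf3r and Csf2ra lie downstream of their GENCODE starts (chr4:126024550 and chr19:61228429). By GENCODE the Csf3r motif and the PU.1 copy of Csf2ra nearest the start therefore lie inside the gene. The PU.1 core was in 28.3%, the C/EBP motif in 40.7% and the CRE in 1.79% of all windows. PU.1 and C/EBP proteins are transcription factors of myeloid development, and a match here is a description of the sequence only.

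Csf1 was the ligand with the most reads, 268246 in 4313 cells. The gene lies at chr3:107741048-107760469. Fibroblast-like cells held 55.8% of its reads, neutrophil-like cells 14.9%, cells without a type 19.0% and basophil-like cells 3.40%. By level the order was different. Over the pools with at least 20 cells, neutrophil-like cells had 2855 ± 1495 CPM (SD, n = 3 pools) and basophil-like cells 2121 ± 582 CPM (n = 3), followed by mast-like cells at 855 ± 370 CPM (n = 2), fibroblast-like cells at 570 ± 246 CPM (n = 4) and eosinophil-like cells at 323 CPM in the 1 pool with at least 20 of them. The first 2 types did not differ beyond their spread, nor did the next 2.

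Neutrophil-like cells carried Csf1 at 1282, 3500, 4258 and 3024 CPM, where the second value rests on 6 cells. The Ccr2-/- pools were thus above WT day 3, with no usable WT day 5 beside them. Neutrophil-like cells were shallow, with a median of 9651 reads, so shares were taken after thinning every cell to 10000 reads and leaving out shallower cells, which kept 506 of 1057 of them. A Csf1 read was then present in 35.3% of 17 cells in WT day 3, 88.2% in Ccr2-/- day 3 and 75.1% in Ccr2-/- day 5, against 4.17% to 12.2% in NK-like cells, which served as the background. The markers of other types in the neutrophil-like gate included fibroblast markers at a summed 1865, 2108, 3212 and 2143 CPM, against 59505 to 89929 CPM in fibroblast-like cells themselves. The part of fibroblast RNA in the Csf1 level of neutrophil-like cells was not tested.

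In basophil-like cells Csf1 was 1450, 404, 2418 and 2494 CPM, and a read was present in 91.7%, 66.7%, 88.9% and 85.2% of thinned cells, the second value resting on 3 cells. The share was close to 90% in each pool with more than 3 cells, while the level was higher in both Ccr2-/- pools. Fibroblast markers in the basophil-like gate were at a summed 22221, 747, 7442 and 1960 CPM, highest in WT day 3. Their part in this order of the pools was not tested. Mast-like cells had 325, 260, 1117 and 593 CPM of Csf1 in 12, 9, 54 and 34 cells. The WT values rest on 21 cells together, and with Leiden clusters in place of the gate the levels were 527, 165, 1156 and 183 CPM and the groups overlapped.

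Fibroblast-like cells, the type with the most cells, had Csf1 at 486, 330, 912 and 552 CPM, and thinned shares of 76.8%, 73.6%, 83.1% and 84.6%. Both Ccr2-/- pools were above both WT pools, and within each genotype day 5 was below day 3. The ratio of Ccr2-/- to WT was 1.88 on day 3 and 1.67 on day 5. The fitted difference was 0.85 on the log2 scale (SE 0.0964) in edgeR's quasi-likelihood test with day as a covariate, with an adjusted p of 0.0722, which did not pass 0.05. Ccr2-/- fibroblast-like cells were also read more deeply, with medians of 75299, 68614, 131792 and 136371 reads. Without cells of over 100000 reads the levels were 381, 351, 604 and 361 CPM, the day 5 genotypes lay close together, and the difference of the mean log2 levels was 0.35 in place of 0.82.

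The fibroblast-like cells were split by fixed markers into resting-type cells (Scara5, Pi16 and Dpp4), inflammatory cells (Saa3, Lcn2 and Hp) and cells between. Inflammatory cells numbered 31, 18, 165 and 156, and resting-type cells 88, 113, 109 and 83. Csf1 was 705, 497, 1178 and 597 CPM in inflammatory cells and 453, 342, 378 and 274 CPM in resting-type cells. Inflammatory cells were the higher in every pool. They were also read more deeply, with a median of 185340 reads over all pools against 83627 in resting-type cells. The part of depth in this contrast was not tested. In resting-type cells the Ccr2-/- value was below the WT value of the same day at both days, the other way round from fibroblast-like cells as a whole. In cells between, Csf1 was 419, 265, 883 and 586 CPM. The larger share of inflammatory cells in the Ccr2-/- pools therefore moves with the genotype difference of the whole type, and its part in it was not tested.

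**Figure D1:**
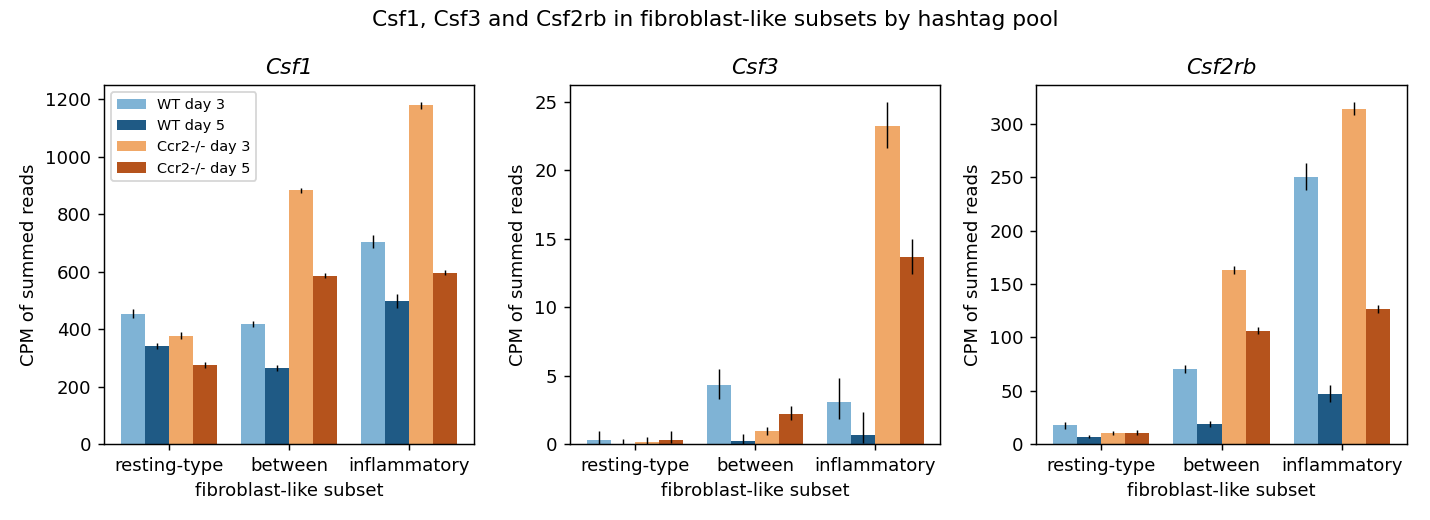
Bars give the level of Csf1, Csf3 and Csf2rb in CPM (linear axes from 0) in resting-type, between and inflammatory fibroblast-like cells for each of the 4 pools, with 95% Poisson intervals. Csf1 in inflammatory cells sits at 497 to 1178 CPM and in resting-type cells at 274 to 453 CPM.

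Perichondrial-like cells, which line the ear cartilage, had Csf1 at 204, 161, 504 and 286 CPM, and the Ccr2-/- pools were the higher (log2 difference 1.08, SE 0.233, edgeR adjusted p = 0.823). Their fibroblast markers were at a summed 37893 to 46668 CPM. Dendritic-like cells had 13, 15.0, 153 and 46.8 CPM, but 70.1% and 70.8% of the reads in the Ccr2-/- pools lay in 1 cell each. Without the cell with the most reads in each pool the levels were 7.88, 8.82, 47.3 and 15.0 CPM, still higher in the Ccr2-/- pools but by less. With Leiden clusters in place of the gate they were 13.6, 13.7, 109 and 11.2 CPM, and Ccr2-/- day 5 was below both WT pools. Blood endothelial-like cells had 71.8, 51.7, 79.9 and 191 CPM. Mo-Mac-like cells, which respond to M-CSF, had little of its transcript, 22.3, 18.3, 17.3 and 12.3 CPM, and thinned shares of 10.4% to 15.0% that overlapped those of NK-like cells. An exact two-sided permutation test over 2 pools against 2 cannot go below p = 0.33, so no difference between genotypes can pass 0.05 in the types too small for the fit.

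**Figure D2:**
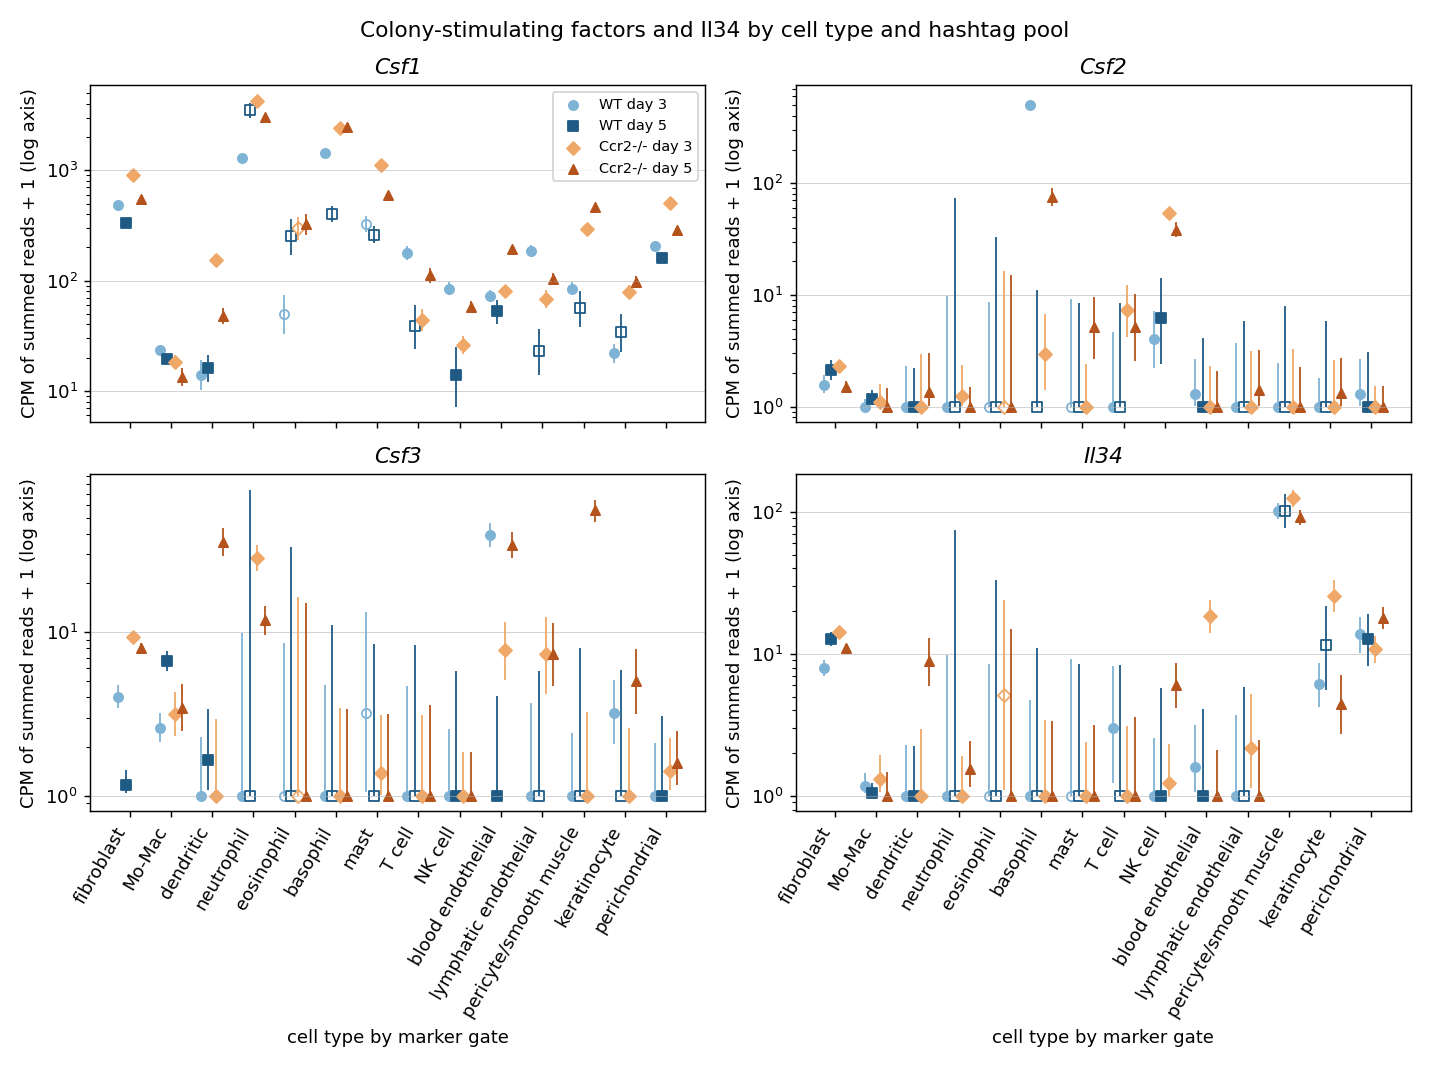
Level of the 4 ligands as CPM + 1 (log axis) by cell type, 1 symbol for each of the 4 pools with 95% Poisson intervals, open where the pool had under 20 cells. Csf1 is highest in neutrophil-like and basophil-like cells, Il34 in pericyte-like or smooth muscle-like cells at 91.0 to 125 CPM, and Csf2 and Csf3 are at 0 in many pools.

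Il34, the second ligand of CSF1R, had 4622 reads in 418 cells and a different pattern. The gene is at chr8:110741829-110805924. Pericyte-like or smooth muscle-like cells had 100.7, 101.1, 125 and 91.0 CPM, and reads were present in 42.9%, 16.7%, 30.4% and 35.5% of thinned cells. Over the 3 pools with at least 20 cells this was 105 ± 17.3 CPM, above every other type. The WT day 5 value rests on 1 of 7 cells. The next types were close to each other, perichondrial-like cells at 12.8 ± 2.97 CPM (n = 4), keratinocyte-like cells at 11.1 ± 11.8 CPM (n = 3) and fibroblast-like cells at 10.5 ± 2.70 CPM (n = 4), and did not differ beyond their spread. Because fibroblast-like cells were many, they still held 53.8% of all Il34 reads and pericyte-like or smooth muscle-like cells 17.0%. In fibroblast-like cells the pools had 6.97, 11.7, 13.3 and 10.1 CPM, and the genotypes overlapped. Keratinocyte-like cells, the known source of IL-34 in resting epidermis, had 5.11, 10.6, 24.6 and 3.43 CPM in 31, 5, 25 and 27 cells, and 77.2% of the reads of the highest pool lay in 1 cell. The annotated antisense genes Gm15894 and Gm15895 overlap Il34 and are rows of their own, and without strand the reads of a shared stretch cannot be told apart.

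Csf2 was rare, with 1412 reads in 83 of 7118 cells. The gene is at chr11:54247271-54249667 and overlaps Gm12223 on the other strand. Basophil-like cells held 43.7% of the reads, NK-like cells 28.4% and fibroblast-like cells 14.4%. Basophil-like cells had 505, 0, 1.98 and 74.6 CPM, but from 2, 0, 1 and 4 cells. A single cell held 98.4% of the WT day 3 reads, and without it the level was 12.3 CPM. This order therefore rests on 1 cell, and without the cell with the most reads in each pool NK-like cells led.

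NK-like cells had Csf2 at 2.99, 5.17, 53.3 and 37.3 CPM, from reads in 2 of 58, 1 of 26, 14 of 137 and 8 of 128 cells. Both Ccr2-/- pools lay above both WT pools. The thinned shares were 0%, 4.17%, 8.94% and 2.65%, and here the WT day 5 value, 1 cell, lay between the Ccr2-/- values. In the Ccr2-/- pools 42.7% and 49.1% of the reads lay in 1 cell, and without the top cell of each pool the levels were 0.9, 0, 30.7 and 19.4 CPM. The fitted difference was 3.57 on the log2 scale (SE 0.861), with an edgeR adjusted p of 0.999. T-like cells had Csf2 at 0, 0, 6.34 and 4.18 CPM, from 3 and 2 cells in the Ccr2-/- pools. Mo-Mac-like cells had 0 to 0.163 CPM and neutrophil-like cells 1 read in all, so no level above background was detectable in these 2 types at this depth.

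Csf3 had 3406 reads in 178 cells, at chr11:98701263-98703629. Fibroblast-like cells held 41.3%, cells without a type 28.4% and blood endothelial-like cells 7.57% of them. The mean level was 19.6 ± 19.0 CPM in blood endothelial-like cells (n = 4), 18.2 ± 31.4 CPM in pericyte-like or smooth muscle-like cells (n = 3) and 4.63 ± 3.73 CPM in fibroblast-like cells (n = 4), spreads that do not separate them. Blood endothelial-like cells had 38.4, 0, 6.78 and 33.1 CPM from 5, 0, 2 and 7 cells, with no order by genotype. Pericyte-like or smooth muscle-like cells had Csf3 in Ccr2-/- day 5 alone, 54.5 CPM from 5 cells.

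In fibroblast-like cells Csf3 was 3.03, 0.171, 8.36 and 6.95 CPM, with a read in 7 of 287, 3 of 246, 30 of 640 and 28 of 453 cells. The Ccr2-/- pools were the higher at both days, with a fitted log2 difference of 2.83 (SE 0.847, edgeR adjusted p = 0.177). In the Ccr2-/- pools the level was highest in inflammatory cells. These had 3.08, 0.642, 23.3 and 13.7 CPM, cells between 4.30, 0.20, 0.958 and 2.22 CPM and resting-type cells 0.274, 0, 0.150 and 0.334 CPM. Without cells of over 100000 reads the levels of the whole type were 3.89, 0, 5.35 and 4.85 CPM, and WT day 3 came close to the Ccr2-/- pools. Neutrophil-like cells had 0, 0, 27.5 and 10.8 CPM of Csf3, and 77.7% of the reads of the third pool lay in 1 cell. NK-like, T-like, basophil-like and eosinophil-like cells had no Csf3 read in any pool.

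Csf1r, the receptor for both M-CSF and IL-34, followed the macrophages: Mo-Mac-like cells held 77.7% of its 91477 reads. The gene is on chromosome 18 and overlaps Hmgxb3 on the other strand. Mo-Mac-like cells had 941, 1503, 741 and 778 CPM (991 ± 352 CPM, n = 4), and a read in 92.1%, 95.7%, 93.0% and 95.2% of thinned cells. Eosinophil-like cells had 247 CPM in the 1 pool with at least 20 of them. Dendritic-like cells followed at 184 ± 70.7 CPM and neutrophil-like cells at 162 ± 34.5 CPM, which did not differ beyond their spread. In neutrophil-like cells a Csf1r read was present in 21.2% and 20.8% of thinned cells of the Ccr2-/- pools, against 1.77% to 4.17% in NK-like cells. Mo-Mac markers were at a summed 4623, 2287, 5864 and 6547 CPM in the neutrophil-like gate, against 12347 to 15386 CPM in Mo-Mac-like cells. In that gate 9, 6, 12 and 12 of the 12 markers had a read, and Ms4a7 and C1qb had none in either WT pool. The sum does not show which cells made these transcripts, and their part in the Csf1r level was not tested.

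Within Mo-Mac-like cells Csf1r differed between the subsets that the fixed markers separate. In WT day 3, resident-like macrophages had 1681 CPM, monocyte-derived dendritic-like cells 1257 CPM, early and late monocyte-derived macrophage-like cells 712 and 697 CPM, and classical monocyte-like cells 655 CPM. In each pool the resident-like macrophages were the highest, with 1681, 1897, 1046 and 1243 CPM from 35, 94, 30 and 24 cells. WT day 3 was the only pool with more than 7 classical monocyte-like cells.

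The Csf1r level of Mo-Mac-like cells was lower in both Ccr2-/- pools, with a fitted log2 difference of −0.60 (SE 0.206, edgeR adjusted p = 0.237). The highest value was WT day 5. With each cell weighted equally the levels were 941, 1440, 943 and 927 CPM, so that WT day 3 and the Ccr2-/- pools lay close together and WT day 5 stood apart. Without cells of over 100000 reads, Ccr2-/- day 3 at 1001 CPM was above WT day 3 at 956 CPM. In resident-like macrophages both Ccr2-/- pools were below both WT pools.

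In blood endothelial-like and perichondrial-like cells, Csf1r was read beside Mo-Mac markers. Blood endothelial-like cells had Csf1r at 36.6, 247, 6.78 and 28.3 CPM (log2 difference −2.80, SE 0.459, edgeR adjusted p = 0.448). The 12 Mo-Mac markers had reads in all pools but for 1 marker in the last, and summed to 867, 2505, 198 and 425 CPM in the same cells. Of the Csf1r reads, 45.9%, 57.4%, 15.8% and 71.6% lay in 1 cell. Perichondrial-like cells had Csf1r at 32.2, 213, 26.5 and 2.91 CPM beside Mo-Mac markers at 844, 2107, 798 and 205 CPM. In both types the pool with the most Csf1r was the pool with the most Mo-Mac markers, and their part in the Csf1r level was not tested.

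**Figure D3:**
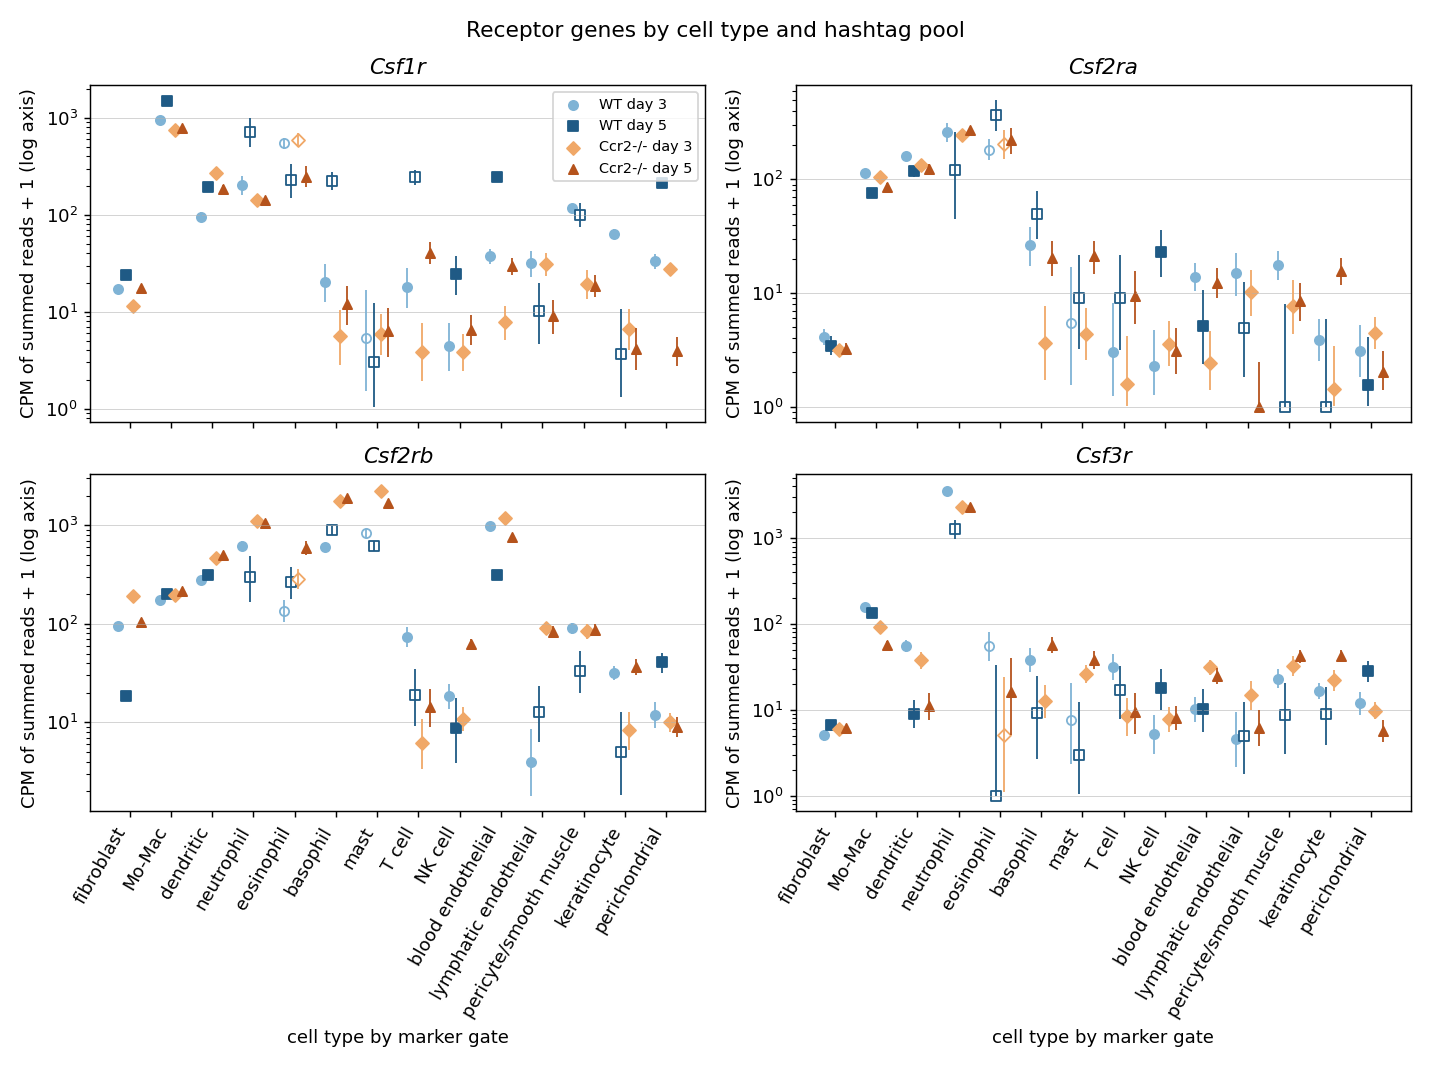
Level of the 4 receptor genes as CPM + 1 (log axis) by cell type, 1 symbol for each of the 4 pools with 95% Poisson intervals, open where the pool had under 20 cells. Csf1r is highest in Mo-Mac-like cells (741 to 1503 CPM) and Csf3r in neutrophil-like cells, while Csf2rb is high in mast-like, basophil-like, neutrophil-like and blood endothelial-like cells.

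Csf2ra, the alpha chain that makes the receptor specific for GM-CSF, was a myeloid transcript. The gene lies at chr19:61223957-61228429. Mo-Mac-like cells held 42.5% of its 14167 reads, neutrophil-like cells 21.6% and dendritic-like cells 9.87%. Neutrophil-like cells had 259 ± 14.1 CPM (n = 3), dendritic-like cells 133 ± 18.8 CPM and Mo-Mac-like cells 94.3 ± 17.5 CPM (n = 4 each), and over pools with at least 20 cells the range of neutrophil-like cells did not overlap those of the other 2 types. Eosinophil-like cells had 221 CPM in the 1 pool with at least 20 of them, between neutrophil-like and dendritic-like cells. Dendritic-like cells had 159, 117, 134 and 122 CPM and Mo-Mac-like cells 114, 75.2, 103 and 84.7 CPM, ranges that did not overlap. In each of these types the genotypes overlapped. Within Mo-Mac-like cells of WT day 3, classical monocyte-like cells had 167 CPM, monocyte-derived dendritic-like cells 162 CPM, resident-like macrophages 124 CPM and late and early monocyte-derived macrophage-like cells 122 and 71.9 CPM. In WT day 5 the order was not the same, with monocyte-derived dendritic-like cells at 118 CPM, late and early monocyte-derived macrophage-like cells at 114 and 77.6 CPM and resident-like macrophages at 46.6 CPM. Fibroblast-like cells had 2.18 to 3.13 CPM.

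Csf2rb, the shared beta chain, had 97530 reads, of which fibroblast-like cells held 29.9%, neutrophil-like cells 12.7% and Mo-Mac-like cells 12.6%. It lies at chr15:78325752-78353847 next to its paralog Csf2rb2, and 12.3% of its 50-base stretches also occur in Csf2rb2, so a part of the reads could have been given to either gene. Mast-like cells had 832, 621, 2253 and 1690 CPM and basophil-like cells 598, 892, 1783 and 1892 CPM. Neutrophil-like cells had 618, 298, 1101 and 1051 CPM. In all 3 granulocyte and mast types the Ccr2-/- pools were above the WT pools, of which WT day 5 held 9, 3 and 6 cells. Fibroblast markers were highest in WT day 3 of the basophil-like gate (22221 CPM) and WT day 5 of the mast-like gate (19795 CPM). In the neutrophil-like gate they were highest in Ccr2-/- day 3 (3212 CPM). Their part in these Csf2rb levels was not tested. Over pools with at least 20 cells the levels of mast-like (1971 ± 398 CPM), basophil-like (1425 ± 718 CPM), neutrophil-like (924 ± 265 CPM) and blood endothelial-like cells (814 ± 380 CPM) overlapped from each type to the next, and eosinophil-like cells had 590 CPM in the 1 pool with at least 20 of them.

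Blood endothelial-like cells were the one type outside the haematopoietic lineage with Csf2rb in most cells. They had 987, 310, 1198 and 760 CPM, and reads in 62.9%, 65.2%, 80.4% and 74.5% of thinned cells, against 7.08% to 13.7% of NK-like cells. Lymphatic endothelial-like cells had 2.92, 11.8, 89.1 and 81.3 CPM. Csf2ra in blood endothelial-like cells was only 12.9, 4.17, 1.43 and 11.3 CPM. Markers of other types with Csf2rb were also read in the blood endothelial-like gate. Mo-Mac markers summed to 867, 2505, 198 and 425 CPM, against 12347 to 15386 CPM in Mo-Mac-like cells, and basophil markers to 333, 70.9, 102 and 255 CPM, against 8775 to 19816 CPM in basophil-like cells. Mast markers summed to 43.2 to 238 CPM against 56648 to 119314 CPM in mast-like cells, and neutrophil markers to 40.9 to 1003 CPM against 42761 to 75665 CPM in neutrophil-like cells. The part of these cells in the Csf2rb level was not tested.

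In fibroblast-like cells Csf2rb was 93.6, 17.5, 193 and 103 CPM, with reads in 13.6%, 5.96%, 20.3% and 16.3% of thinned cells. The ratio of Ccr2-/- to WT was 2.06 on day 3 and 5.92 on day 5, and within each genotype day 5 was lower. The fitted genotype difference was 1.80 on the log2 scale (SE 0.358, edgeR adjusted p = 0.102) and the day difference −1.64 (SE 0.356, adjusted p = 0.565). Resting-type cells had only 17.6, 7.10, 10.8 and 10.6 CPM, whereas inflammatory cells had 250, 46.9, 314.2 and 126 CPM. Inflammatory cells were the higher in each pool, although 85.6% of the WT day 5 reads lay in 1 cell. Without cells of over 100000 reads the whole type had 34.6, 21.6, 89.3 and 37.0 CPM, with the day 5 values closer together and the day 3 values further apart in ratio. Neutrophil markers in fibroblast-like cells were at a summed 39.7, 41.4, 73.5 and 89.7 CPM, blood endothelial markers at 11.5 to 23.2 CPM (against 5750 to 6593 CPM in their own type) and mast markers at 22.5 to 29.2 CPM. Mo-Mac markers were at 219, 250, 150 and 142 CPM and basophil markers at 7.21 to 11.4 CPM. Their part in the Csf2rb level was not tested.

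Dendritic-like cells had Csf2rb at 278, 310.9, 470 and 499 CPM, higher in both Ccr2-/- pools (log2 difference 0.74, SE 0.218, edgeR adjusted p = 0.557). Mo-Mac-like cells had 173, 198, 197 and 217 CPM, and the genotypes overlapped.

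A cell can bind GM-CSF with high affinity only if it makes both chains, so the 2 genes were looked at together in cells thinned to 10000 reads. Reads of both were found in 33.2% of neutrophil-like cells (168 of 506, 95% Clopper-Pearson interval 29.1 to 37.5%), 32.3% of dendritic-like cells (53 of 164, 25.2 to 40.1%) and 19.8% of Mo-Mac-like cells (187 of 944, 17.3 to 22.5%). Mast-like and basophil-like cells had Csf2rb without Csf2ra in 88.9% and 85.2% of cells, and both in 2.02% (2 of 99) and 5.93% (8 of 135). Blood endothelial-like cells had Csf2rb alone in 68.1% and both in 2.75% (5 of 182). Fibroblast-like cells had Csf2rb alone in 15.4% and both in 0.444% (7 of 1576). No NK-like or T-like cell had both (upper 95% limits 1.18% and 2.06%). By pool, 21.9%, 16.5%, 24.0% and 21.7% of Mo-Mac-like cells (366, 395, 100 and 83 cells) had both. For neutrophil-like cells the shares were 41.2%, 0%, 37.6% and 30.6% of 17, 2, 170 and 317 cells. Most neutrophil-like cells were thus Ccr2-/- and most Mo-Mac-like cells WT, so the shares over all pools mix cell type with genotype. The dendritic-like shares were 26.5%, 26.1%, 37.9% and 42.5% (13 of 49, 12 of 46, 11 of 29 and 17 of 40 cells), higher in both Ccr2-/- pools. Their 95% intervals all overlapped, at 14.9 to 41.1%, 14.3 to 41.1%, 20.7 to 57.7% and 27.0 to 59.1%. A transcript with few reads can be missed in a thinned cell.

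**Figure D4:**
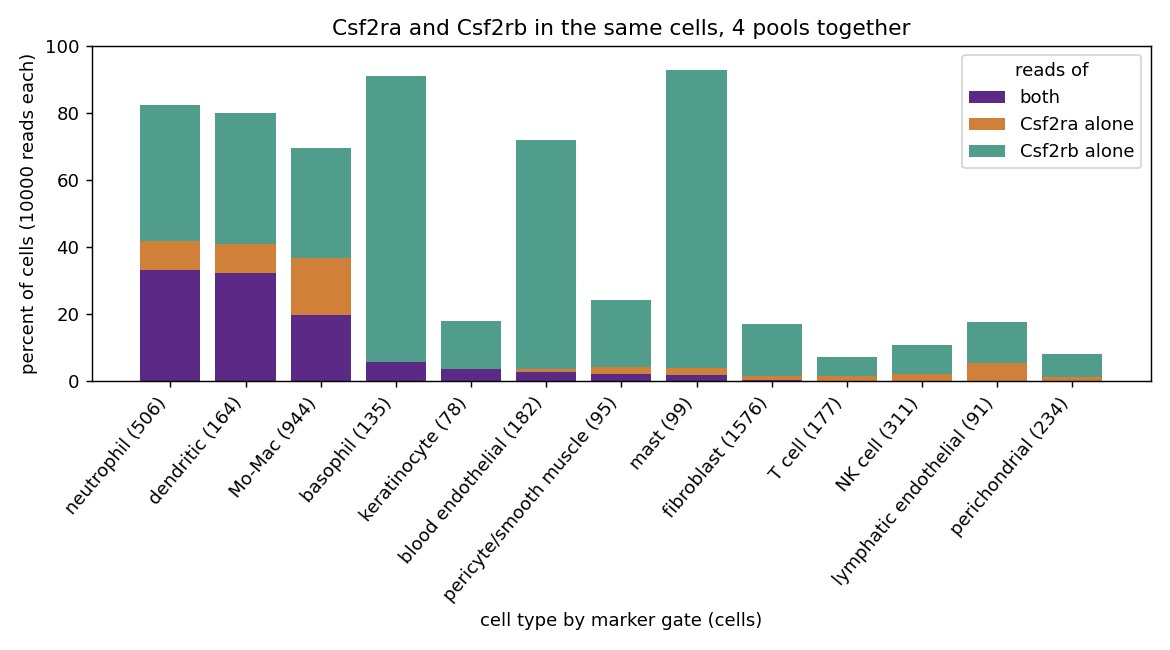
Percent of cells, each thinned to 10000 reads, with reads of both Csf2ra and Csf2rb, of Csf2rb alone or of Csf2ra alone, by cell type over all pools. The share of each pool in the cells differs between types. Both chains are seen in 33.2% of neutrophil-like, 32.3% of dendritic-like and 19.8% of Mo-Mac-like cells, and the beta chain alone in 88.9% of mast-like and 68.1% of blood endothelial-like cells.

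Csf3r, the G-CSF receptor, had most of its reads in neutrophil-like cells. It is at chr4:126024550-126044440, and 10.5% of its 50-base stretches occur in other annotated genes. They held 62.4% of its 43753 reads and Mo-Mac-like cells 18.4%. Neutrophil-like cells had 3504, 1273, 2285 and 2286 CPM, and reads in 100%, 100%, 92.9% and 94.3% of thinned cells. The 2 Ccr2-/- pools were alike and below WT day 3, and WT day 5 held 6 cells. The mean was 2692 ± 704 CPM (n = 3), and the next type, Mo-Mac-like cells, had 109 ± 43.9 CPM (n = 4). Within neutrophil-like cells, those high in stefin A genes had Csf3r at 1943 and 2395 CPM in the Ccr2-/- pools and those low in them 2600 and 2287 CPM, with no common order. Csf1 was 3506 and 2390 CPM in the first and 5016 and 3486 CPM in the second, higher in the cells low in stefin A genes in both pools.

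Mo-Mac-like cells had Csf3r at 155, 133, 91.9 and 56.5 CPM and reads in 53.8%, 46.8%, 33.0% and 32.5% of thinned cells, against 3.54% to 20.8% of NK-like cells. Both measures were lower in both Ccr2-/- pools. In the fit the log2 difference was −0.95 (SE 0.217, edgeR adjusted p = 0.141). Neutrophil markers in these cells were at a summed 149, 96.2, 71.0 and 167 CPM, and their part in the Csf3r level was not tested. In WT day 3 Csf3r was 214 CPM in classical monocyte-like cells, 170 CPM in early and 137 CPM in late monocyte-derived macrophage-like cells, 108 CPM in monocyte-derived dendritic-like cells and 73.1 CPM in resident-like macrophages, the reverse of the order of Csf1r at both ends in that pool. Classical monocyte-like cells numbered 89, 7, 4 and 4, so the makeup of the type moved with the Csf3r level and its part was not tested. In resident-like macrophages alone Csf3r was 73.1, 122, 55.4 and 36.5 CPM, and in monocyte-derived dendritic-like cells 108, 141, 57.0 and 28.0 CPM, again lower in both Ccr2-/- pools, the last 2 values resting on 5 and 11 cells.

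**Figure D5:**
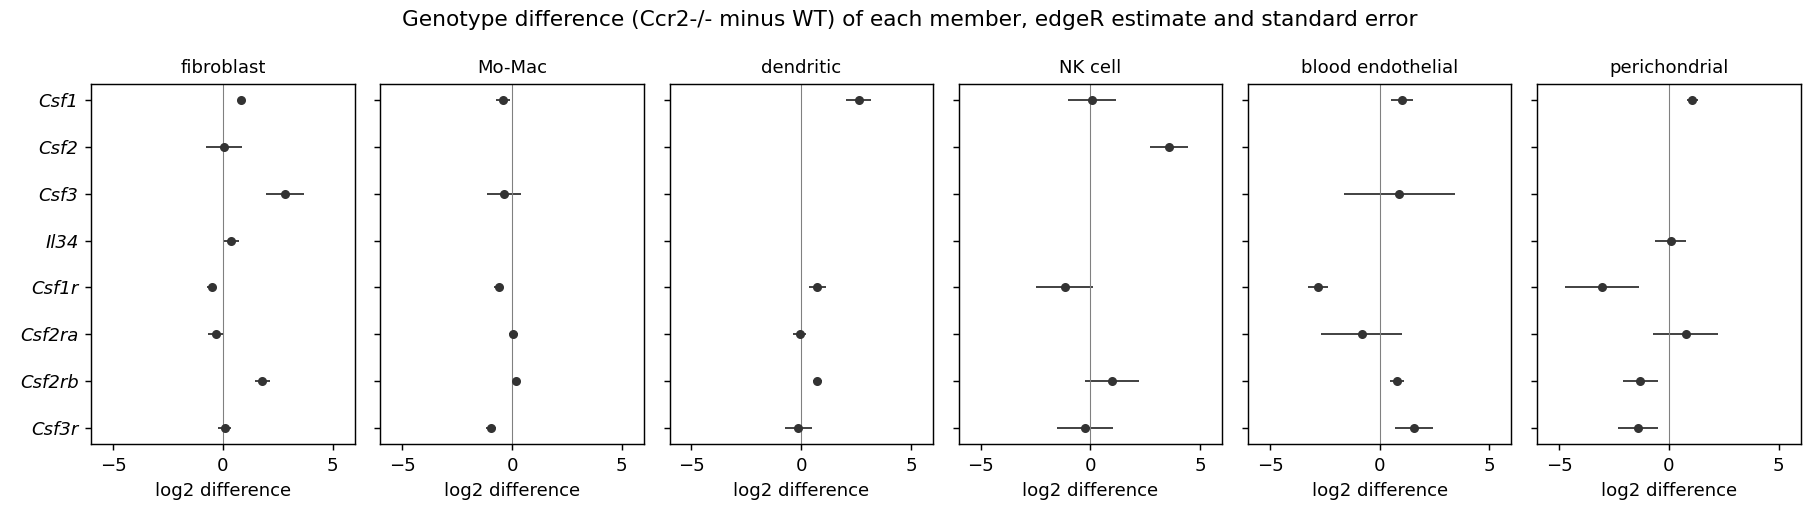
Fitted log2 difference between Ccr2-/- and WT pools for each member and each of the 6 cell types fitted, with bars of 1 standard error, from edgeR with day as a covariate. Csf1, Csf3 and Csf2rb lie above 0 in fibroblast-like cells (0.85, 2.83 and 1.80) and Csf1r and Csf3r below 0 in Mo-Mac-like cells (−0.60 and −0.95), and none passed an adjusted p of 0.05.

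The comparison of genotypes over both days was fitted in the 6 types with at least 20 cells in every pool. None of the 36 pairs of a gene and a type passed an edgeR adjusted p of 0.05, and 12 had an unadjusted p below it, against 10.4% of all genes tested over the 6 types. DESeq2 called 6 of 41 pairs: Csf1 in fibroblast-like (log2 difference 0.85), dendritic-like (2.64) and perichondrial-like cells (1.06) and Csf3 in fibroblast-like cells (3.10) as higher in Ccr2-/-, and Csf3r in Mo-Mac-like (−0.93) and Csf1r of blood endothelial-like cells (−2.80) as lower. DESeq2 called 5.27% of all genes in fibroblast-like cells, 3.05% in Mo-Mac-like, 0.481% in dendritic-like, 0.395% in perichondrial-like, 0.253% in blood endothelial-like and 0.166% in NK-like cells. In edgeR, few genes of any kind were called: 0.0941% of all genes tested in Mo-Mac-like cells, 0.0243% in blood endothelial-like cells and 0% in fibroblast-like, dendritic-like, NK-like and perichondrial-like cells. The fit had 1 residual degree of freedom, and its p-values measure only the spread between these pools. The median log2 difference of the genes tested among the 8 was 0.23 in fibroblast-like cells (all genes 0.01), −0.39 in Mo-Mac-like cells (−0.04), 0.74 in dendritic-like cells (−0.03), 0.08 in NK-like cells (0.09), 0.84 in blood endothelial-like cells (0.03) and −0.61 in perichondrial-like cells (0.06).

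By a rule of size, at least a 2-fold difference in 1 direction at both days, Csf3 and Csf2rb were higher in Ccr2-/- fibroblast-like cells (2 of 8 genes against 6.43% of all genes), Csf1 in dendritic-like cells (1 of 6 against 11.2%) and Csf2 in NK-like cells (1 of 6 against 10.7%). In blood endothelial-like cells Csf3r met the rule as higher, at 9.31, 9.17, 30.3 and 24.2 CPM, and Csf1r as lower (2 of 7 against 9.83%). Csf2rb in fibroblast-like cells did not meet the rule at a hashtag ratio of 10 or with Leiden clusters, Csf1 in dendritic-like cells with Leiden clusters, or Csf3r in blood endothelial-like cells with the mean of cells. None of 6 genes met it in Mo-Mac-like cells (10.9%) or perichondrial-like cells (9.64%). With Leiden clusters, Csf2, Csf1r and Csf3r met it in perichondrial-like cells. Csf3r in blood endothelial-like cells stood beside neutrophil markers at a summed 136, 40.9, 688 and 1003 CPM, whose part was not tested.

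For day 5 against day 3, none of the 36 pairs passed in edgeR and 6 had an unadjusted p below 0.05, against 4.6% of all genes tested, while DESeq2 called 2 of 41. These were Csf1 in fibroblast-like cells (−0.65) and Csf1r in blood endothelial-like cells (2.45). DESeq2 called 0.595% of all genes in fibroblast-like, 0.289% in Mo-Mac-like, 0.0668% in dendritic-like, 0.0648% in blood endothelial-like, 0.0354% in perichondrial-like and 0.032% in NK-like cells for day. The edgeR background was 0.0162% of genes in blood endothelial-like cells, 0.0172% in dendritic-like cells and 0% in the other 4 types. In fibroblast-like cells Csf1 was lower at day 5 in both genotypes (SE 0.0961, edgeR adjusted p = 0.404), as was Csf2rb.

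The relatives of these genes were read in the same way. Csf2rb2, the second beta chain of the mouse, which serves IL-3 alone, had 675, 445, 1011 and 1199 CPM in basophil-like cells, 481, 629, 1494 and 909 CPM in mast-like cells and 419, 186, 416 and 303 CPM in blood endothelial-like cells, but 62.3, 0, 130 and 155 CPM in neutrophil-like cells. It thus shared the high types of Csf2rb apart from neutrophil-like cells. Il3ra was highest in mast-like cells at 19.9, 40.6, 75.9 and 50.0 CPM, and Il5ra was 12.3, 17.5, 62.3 and 53.3 CPM in eosinophil-like cells. Among the kinases related to CSF1R, Kit, the stem cell factor receptor, was 486, 639, 451 and 635 CPM in mast-like cells, and its ligand Kitl 269, 284, 290 and 239 CPM in blood endothelial-like cells. Flt3 was 319, 377, 152 and 233 CPM in dendritic-like cells, of which it is a marker. None of the genes of the other 5 lists (IL-3 and IL-5 with their receptors, related kinases and ligands, 14 signal transducers and feedback genes, myeloid transcription factors and inducing cytokines) passed edgeR in any of the 6 types for genotype or day. Of 35 genes of these lists tested by the rule of size in Mo-Mac-like cells, 5 were lower in Ccr2-/- (Kit, Pdgfrb, Cebpb, Cebpe and Il1b), and of 35 in fibroblast-like cells 0 met it. In dendritic-like cells 2 of 31 were higher, Tnf and Cish, a feedback gene of STAT5. In NK-like cells Il1b was higher and Flt3l and Cebpa lower (3 of 32). In blood endothelial-like cells Kit, Runx1, Il1b and Tnf were higher and Tslp lower (5 of 32), and in perichondrial-like cells Il5ra, Cish and Tslp were higher and Kit and Ptpn6 lower (5 of 31). The shares of all genes that met the rule in these types are those given with it above.

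Likeness of pattern was measured as Pearson's r of log2(CPM + 1) over 45 sums of a cell type in a pool, among 19729 genes, where sums of 1 type are not independent. Csf1r was most like Wfdc17 (0.91), Lyz2 (0.90) and Lyz1 (0.87), and Csf3r most like Ccrl2 (0.89), Rab7 (0.87) and Mmp8 (0.87). Csf2ra was most like Gpr35 (0.90), Sirpb1b (0.89) and Clec4n (0.88). Csf2rb was most like its paralog Csf2rb2 (0.87), with Jak2, the kinase bound to the beta chain, next at 0.74. Among the ligands, Il34 was most like Tpm2 (0.85), Arhgef17 (0.83) and Agtr1a (0.81). Csf1 was most like Galnt17 (0.74), Egr1 (0.72) and Egr3 (0.71), Csf2 most like Xcl1 (0.78) and Gzmc (0.75), and Csf3 most like Car4 (0.68), Lrg1 (0.66) and Gm7160 (0.65).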

How the data were processed

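Single-cell cDNA and hashtag libraries were made by TAS-Seq on BD Rhapsody from 4 pooled groups. The authors deposited raw counts: whole reads per gene and cell barcode, and whole reads per hashtag antibody and barcode. The deposited counts are not divided by depth, and per the labels reads were trimmed with Cutadapt and aligned to GRCm38.p6 with Bowtie2. The methods describe a background correction that was not visible in the values. The strand of counting is not given in the sources used here. Of the hashtag table, 9 columns of other hashtags were left out.

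A barcode was given to a hashtag with at least 10 hashtag reads and a normalized value at least 3 times the next. Barcodes with over 20% mitochondrial reads or under 200 genes were left out. No doublet caller was run beyond the 570 barcodes with several hashtags. Cells were gated by mean marker z-score (at least 0.5, ahead of the next list by 0.25, with 3 markers above 0.5), limits set after seeing the data, and 857 cells lay within 0.1 of one. The 8 genes and all lists were chosen with earlier results of these data known. All 8 genes are named throughout, with the genes of other lists that passed a fit or the 2-fold rule, and the 3 genes most alike to each, of which 1 is not reported here. The 2-fold rule used genes with at least 30 reads.

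Reads were summed per type and pool. Levels are CPM with exact Poisson intervals. Genotype and day were fitted together in edgeR 4.0.16 (glmQLFit, TMM, filterByExpr, Benjamini-Hochberg over all genes) in R 4.3.3, with DESeq2 1.42.0 as an alternative, and checked on simulated data. Other steps used Python 3.11.15, scipy 1.17.1 and scanpy 1.11.5. Depth was 68064673 to 162572556 reads in a pool. Gene positions come from GENCODE M21 on GRCm38, another release than the authors aligned to, and promoters from RefSeq, which held Csf1, Csf2, Csf2ra and Csf3r of the 8 genes in the table used. The Csf2 window lay upstream of its annotated start and is not shown.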

Additional observations from a re-analysis of the deposited data

Results flagged for a closer look

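In 4 cases the Ccr2-/- level lay below WT at one day and above it at the other, and the difference between the days was not tested. Csf1 in NK-like cells was 0.30 times the WT level at day 3 and 4.41 times at day 5, a ratio of 14.7 between the days, with 73.0% of the WT day 3 reads in 1 cell. Csf2rb in NK-like cells was 0.563 times the WT level at day 3 and 7.99 times at day 5, a ratio of 14.2, with 82.3% of the Ccr2-/- day 5 reads in 1 cell. Csf2ra in blood endothelial-like cells was 0.110 times the WT level at day 3 and 2.72 times at day 5, a ratio of 24.6 that rests on 47 and 43 reads. Csf2 in fibroblast-like cells was 2.32 times the WT level at day 3 and 0.450 times at day 5, a ratio of 5.16, from 3 to 7 cells with a read in each pool.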

How the results depend on the processing

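Against 0 genotype calls among the pairs of a gene and a type, edgeR with DESeq2 size factors called 1 of 36, Csf1 in fibroblast-like cells. It then called 64 genes higher and 109 lower of 19288 in that type, against 0 before. Without a filter on low counts edgeR called 5 of 47. All genes called higher and lower were then 305 and 339 of 30629 in fibroblast-like and 276 and 356 of 27244 in Mo-Mac-like cells. They were 89 and 26 of 21339 in dendritic-like and 22 and 19 of 21499 in blood endothelial-like cells. DESeq2 called 6 of 41, with its shares given above. For day DESeq2 called 2 of 41. EdgeR without a filter called 1 of 47, in blood endothelial-like cells (6 and 8 of all genes). Scaling by library size alone, the Leiden clusters in place of the gate and a hashtag ratio of 10, where NK-like cells could not be fitted, called 0 of either. At a ratio of 1.5 the rule of size named 11 pairs in place of 6. All genes that met it rose too, in fibroblast-like cells from 646 higher and 653 lower of 20193 to 1281 and 1633. There were 1160 and 2436 of 16749 in Mo-Mac-like, 1097 and 1326 of 12109 in dendritic-like and 1435 and 1064 of 12652 in NK-like cells. Blood endothelial-like cells had 1231 and 1122 of 12680 and perichondrial-like cells 1467 and 1097 of 14113. With the mean of cells or a hashtag ratio of 10 the rule named 5 pairs and with the Leiden clusters 7. In fibroblast-like cells all genes were then 946 and 669 of 20193, 709 and 656 of 19740 and 723 and 663 of 20870. In dendritic-like cells they were 604 and 853 of 12109, 592 and 769 of 11975 and 461 and 713 of 13166. NK-like cells had 1156 and 566 of 12652, 921 and 573 of 12042 and 908 and 459 of 12258. Blood endothelial-like cells had 929 and 722 of 12680, 667 and 589 of 12356 and 633 and 658 of 13563. Of the 7 Leiden pairs, Csf2 as higher and Csf1r and Csf3r as lower were in perichondrial-like cells. There all genes were 718 and 562 of 15378. The cause was not tested. With 1 pool left out no fit was rerun, and the genotype ratio at the day that kept both pools was taken. It had the fitted direction in all 48 such values of the named genotype differences. Leaving out either pool of a day gives the same value, and pairs that met the 2-fold rule could not turn. The 12 named differences were a fixed list, and in most of them the genotypes did not overlap. Most could therefore not turn. The leading type was the same for all 8 genes under 5 alternatives, for 7 without the single cell with the most reads (Csf2 then led in NK-like cells), for 7 by thinned share (Csf1 led in basophil-like cells) and for 6 by a share with at least 3 reads, where Csf3 led in pericyte-like or smooth muscle-like cells. Of 150 levels recomputed, 62 moved by more than their counting interval. The values most limited by depth and cell number are Csf2 and Csf3, WT neutrophil-like, basophil-like and mast-like cells, and the eosinophil-like gate. No paired analysis was possible because the labels give the pools no replicate numbers.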

Other observations

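Cells that no marker list claimed, 1596 in number, held 28.4% of the Csf3 reads and 19.0% of the Csf1 reads, so a part of both ligands lay in cells whose type was not assigned. Reads of the other genes lay there too. Of the 4622 Il34 reads 3736 lay in cells with a type, of the 14167 Csf2ra reads 11873 and of the 1412 Csf2 reads 1257. For Csf1r it was 81136 of 91477 reads, for Csf2rb 86114 of 97530 and for Csf3r 38212 of 43753. The share without a type was largest for Csf3.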
